A study of Mus musculus with 16 samples.

Results

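Exoc4 encodes a subunit of the exocyst, and its RNA gave 7567 of the 1305107 significant RNA–DNA pairs listed for Input and 7408 of the 1415135 listed for H3K27me3-RADIP in mouse embryonic stem cells. The gene was chosen by measured values of these same data, namely the number of its pairs and how many of them joined RNA and DNA more than 1 Mb apart, so both quantities are given here as a description with no test. Its members are all pairs whose RNA tag the authors assigned to the name Exoc4. All of them carry the identifier ENSMUSG00000029763.17, and all RNA tags lie on the plus strand. Of 12080 RNA names in both tables together, this account concerns 1.

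RADIP ligates RNA to nearby chromatin in crosslinked nuclei and then selects the chimeras with an antibody, so a pair joins 1 short stretch of RNA to 1 of DNA. The cells were PGK12.1 mouse embryonic stem cells, a single line grown in serum with leukemia inhibitory factor and fixed with 1% formaldehyde. H3K27me3-RADIP was selected with an antibody against trimethylated lysine 27 of histone H3, whereas Input was the part of the same kind of chimera that saw no antibody. The labels give 8 libraries for each condition, whereas the study describes 4 biological replicates of each, and which libraries share a replicate is not given in the sources used here. The deposited values come as 1 merged table per condition. The values of single libraries, the spread between replicates and any test between the conditions are therefore not given, and every interval below covers counting error only. Each table lists pairs at a q-value of at most 0.1.

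The exocyst is a protein complex that tethers secretory vesicles to the plasma membrane before they fuse, and Exoc4 is the mouse counterpart of yeast Sec8. It is used in most cell types. H3K27me3 is the mark laid down by Polycomb repressive complex 2, and in embryonic stem cells it covers silent developmental genes such as the Hox clusters. As a check of the cell type, 4 of 10 stem cell markers were listed for Input and 6 of 10 for H3K27me3-RADIP, with 2388 and 2500 pairs of Esrrb RNA. None of 3 mesoderm markers had any, the 4 primitive endoderm markers gave 38 and 56 pairs in all and the 3 neural markers 11 and 33. Pou5f1 and Nanog RNA were listed in neither table, and a missing RNA is one with no significant pair, not one that is silent.

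Exoc4 lies on mouse chromosome 6, at chr6:33249085-33973979 on the plus strand of mm10 (GENCODE M21 annotation), and spans 725 kb. Its longest coding transcript, Exoc4-201, has 18 exons whose 4824 bases make up 0.665% of the gene. Of the 4 RNA tag positions with most pairs over both tables, the first 2, both intronic, and the exonic one are printed from the GRCm38 genome to show what the assay read from this transcript. Capitals mark the 25 bases from the listed start to the listed end, read as counted from 1. Whether the tables count from 0 or 1 is not stated, so the tag may begin 1 base later.
Tag in intron 3 at chr6:33277770-33277799, plus strand: tgaTAAGAAAGAAAATGACTTCTGTAGTac
Tag in intron 10 at chr6:33674693-33674722, plus strand: gatGGTGTTGACAGCTTTCAGGGTTGTTgg
Tag in exon 3 at chr6:33277192-33277221, plus strand: agaGAATCTGCTTTCCTGCAAGATGCTGct

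The intron 3 tag was listed in 13 Input pairs and 20 H3K27me3-RADIP pairs, with 11 and 16 different DNA positions. Those DNA tags lay from 11.2 kb to 2529 kb away in Input and from 34.5 kb to 5789 kb away in H3K27me3-RADIP. The intron 10 tag was listed in 15 and 10 pairs, and the tag in exon 3, which the authors' labels call coding sequence, in 7 and 12. No single RNA position therefore carried the result. Input held 6419 distinct RNA tag positions and H3K27me3-RADIP 6069, and the 691 that both held were 10.8% of the former and 11.4% of the latter. The same share over all RNAs was not computed, so no difference in the RNA is read from it.

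A second set of sequences shows the far pairs that the account turns on, with RNA tag and DNA tag printed from the plus strand of GRCm38 and capitals as above. The first pair is the farthest in Input, at 5.85 Mb. The second is the farthest in H3K27me3-RADIP, at 84.9 Mb, with its DNA tag in Ret, which encodes a receptor tyrosine kinase. The third stands for the Hoxa cluster and is the pair of middle distance, 18.7 Mb, in the bin that holds the Hoxa5 start.
Input, RNA in exon 9, chr6:33441962-33441991: cctCCCATGCTATCAGCATGAGCGCCTAtc
Input, DNA in no annotated gene, chr6:39289740-39289769: gttGTGGGCAAACAATACTACTATTCTCag
H3K27me3-RADIP, RNA in intron 2, chr6:33268936-33268965: tccACCACTGCCTGGTGGGATTTGATCTtt
H3K27me3-RADIP, DNA in Ret, chr6:118182658-118182687: acaAACTGTCCAAATTGCTGTGTGCTTCtt
H3K27me3-RADIP, RNA in intron 9, chr6:33538267-33538296: tatTAAATATATTAGAGTTCCAAATAACtt
H3K27me3-RADIP, DNA in Gm28308, Hoxa3, Hoxaas3 and Hoxa6, chr6:52208466-52208495: ggtGTATGTCTTGTCCGGAAGACTCGACgc

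The number of Exoc4 pairs was close to equal in both tables. Its pairs made up 0.580% of Input (95% Wilson interval 0.567% to 0.593%) and 0.523% of H3K27me3-RADIP (0.512% to 0.536%). By number of pairs it ranked 5 among 10176 RNA names in Input and 8 among 10660 in H3K27me3-RADIP. After TMM scaling over 8158 shared protein-coding RNAs, the log2 ratio of H3K27me3-RADIP over Input was -0.06 (exact 95% interval -0.11 to -0.02). That is well inside the limit of 0.5 on the log2 scale, beyond which 20.2% of those RNAs lay higher and 21.9% lower in H3K27me3-RADIP. The median over all 8158 was -0.01. The cells were sampled in bulk, so fewer cells with an RNA and less of it per cell cannot be told apart.

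The other 8 exocyst subunits had fewer pairs than Exoc4, and 7 of the 8 were listed in both tables. Exoc8 was listed in neither. Exoc6b, encoded by a gene of 451 kb also on chromosome 6, gave 2393 and 2624 pairs. It had 5.31 and 5.82 pairs per kb of gene, against 10.4 and 10.2 for Exoc4. Exoc2 gave 300 and 285 pairs and Exoc6 60 and 81. Exoc5 gave 53 and 21 pairs, a log2 ratio of -1.37 (exact 95% interval -2.17 to -0.61), and was the subunit with the lowest ratio. Exoc1, Exoc3 and Exoc7 gave from 11 to 32 pairs in either table. Pairs over 1 Mb were listed for Exoc4 and for Exoc6b, where they made up 5.31% of cis pairs in Input and 9.18% in H3K27me3-RADIP, and for no other subunit. The remaining subunits had at most 300 pairs in either table, too few to compare their reach.

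The Exoc4 RNA tags came almost all from introns. The authors' labels put 7164 Input tags (94.7%, 95% interval 94.1% to 95.2%) and 7048 H3K27me3-RADIP tags (95.1%, 94.6% to 95.6%) in introns. Over all protein-coding RNAs the intron share was 88.9% and 89.6%. Coding sequence held 267 and 229 tags, other exonic sequence 91 and 73, the 3' UTR 39 and 53 and the 5' UTR 6 and 5. Per length most exons stood above the introns. Exon 6, of 0.244 kb, held 65 tags in Input and 52 in H3K27me3-RADIP, which is 266 and 213 tags per kb, whereas intron 10, the longest at 178 kb, held 12.3 and 12.2 tags per kb. That intron alone gave 2187 and 2178 tags, or 28.9% and 29.4% of all. The last exon, 2.07 kb long and mostly 3' UTR, held 11.6 and 13.1 tags per kb, about the level of the introns around it.

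Along the gene the tags were spread over its full length. Up to the midpoint of the gene lay 48.1% of the Input RNA tags (95% interval 46.9% to 49.2%) and 45.3% of those of H3K27me3-RADIP (44.1% to 46.4%). In windows of 50 kb the count ran from 343 to 761 in Input and from 314 to 821 in H3K27me3-RADIP, leaving out the last, shorter window. The log2 ratio of H3K27me3-RADIP over Input was lowest, at -0.35 (-0.54 to -0.15), 150 kb from the start, and highest, at 0.10 (-0.05 to 0.24), 650 kb from it. Every window therefore stayed within the limit of 0.5, and the RNA side of the pairs differed little between the conditions. Intron 8, only 3.42 kb long, was the 1 intron outside that limit, with 34 and 15 tags.

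**Figure D1:**
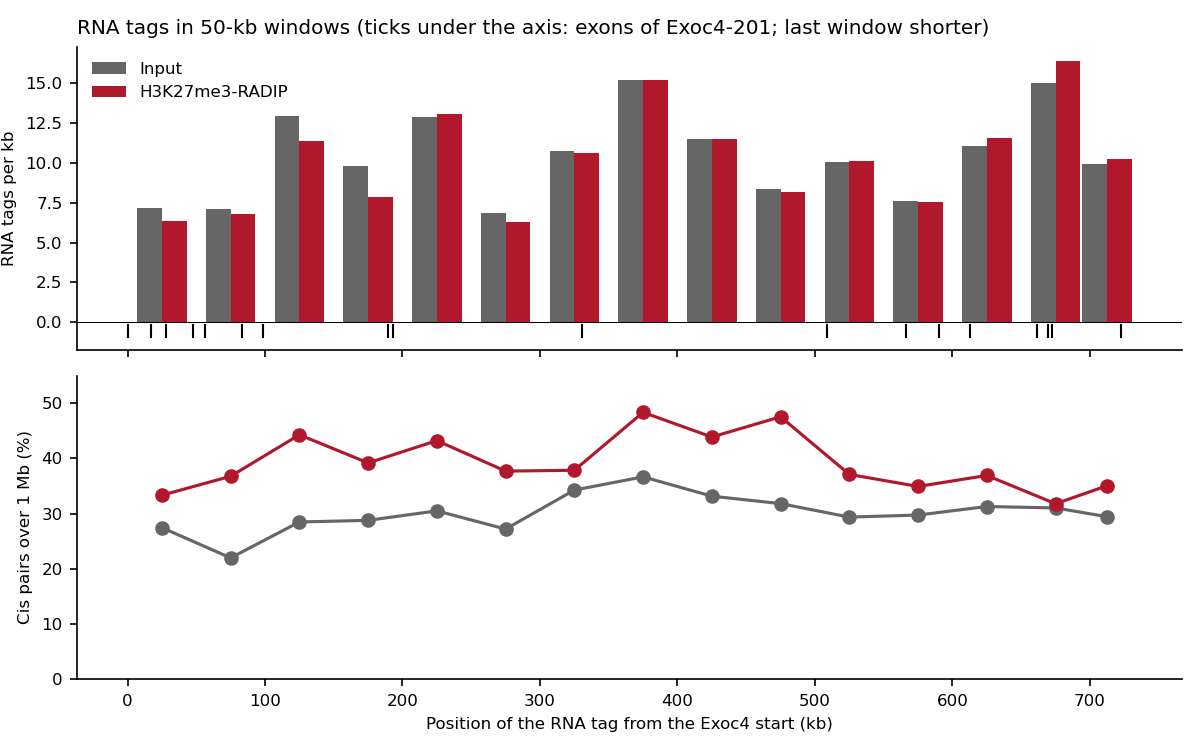
Exoc4 RNA tags per kb in 50-kb windows from the gene start (upper panel, bars, with exon positions as ticks) and the share of cis pairs over 1 Mb from each window in percent (lower panel, points), for Input in grey and H3K27me3-RADIP in red. The tag density is alike in both conditions, while the share of far pairs is higher in H3K27me3-RADIP in every window, from 31.8% to 48.4% against 22.0% to 36.7%.

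The DNA side differed. Inside the gene Input had 3258 DNA tags, 43.1% of its Exoc4 pairs (95% interval 41.9% to 44.2%). H3K27me3-RADIP had 2130 there, 28.8% (27.7% to 29.8%), a log2 ratio of -0.65 (exact 95% interval -0.72 to -0.57). Before the gene the tags numbered 2298 and 2640, a log2 ratio of 0.17 (0.09 to 0.25), and after it 2002 and 2616, a log2 ratio of 0.35 (0.27 to 0.44). With a total that hardly differed, the pairs of H3K27me3-RADIP were thus fewer on the gene and, summed by side, more numerous before and after it. Within 1 Mb before the gene the intervals held 0, at -0.05 to 0.24 from 250 kb outward and -0.05 to 0.37 nearer. All other RNAs had log2 ratios of 0.69 in the first 250 kb after the gene and 0.23 from there to 1 Mb, against 0.26 and 0.21 for Exoc4. From 1 to 5 Mb after it they had -0.04, against 0.44. Inside the gene they had -0.45. A smaller share inside the own gene was common: among 459 protein-coding RNAs with at least 500 pairs in both tables the share was lower in H3K27me3-RADIP for 92.2%. The median difference was -8.00 percentage points, that of Exoc4 was -14.3, and 57 of the others had a larger one.

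The gene is covered by 30 bins of 25 kb, and each of the 30 held fewer pairs in H3K27me3-RADIP. In Input they held from 53 to 141 pairs, with a median of 108.5, and in H3K27me3-RADIP from 35 to 124, with a median of 70.5. The log2 ratio had a median of -0.73 and reached -0.50 or below in 20 of the 30. It was lowest, at -1.44, in the bin that starts 25.9 kb into the gene, where 93 Input pairs stood against 35, and closest to 0, at -0.11, in the bin that starts 476 kb into it. In 4 equal segments of the gene the log2 ratio was -0.74 (exact 95% interval -0.92 to -0.57), -0.84 (-1.01 to -0.68), -0.63 (-0.80 to -0.47) and -0.44 (-0.58 to -0.29) from 5' to 3'. These intervals cover counting error only and the replicates were merged, so no difference between segments is read from them. The bin just after the gene, chr6:33975001-34000000, held 79 and 111 pairs, so the sign of the difference turned at the 3' end. Pairs of all other RNAs with DNA in the gene were few, at 203 in Input and 152 in H3K27me3-RADIP.

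Within the gene the DNA tag more often lay downstream of the RNA tag than upstream. In Input this was so for 2091 of 3258 pairs (64.2%, 95% interval 62.5% to 65.8%) and in H3K27me3-RADIP for 1371 of 2130 (64.4%, 62.3% to 66.4%). The orientation was therefore alike in both conditions although the number of pairs differed. The DNA tag lay on the plus strand in 50.9% and 49.8% of all Exoc4 pairs.

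**Figure D2:**
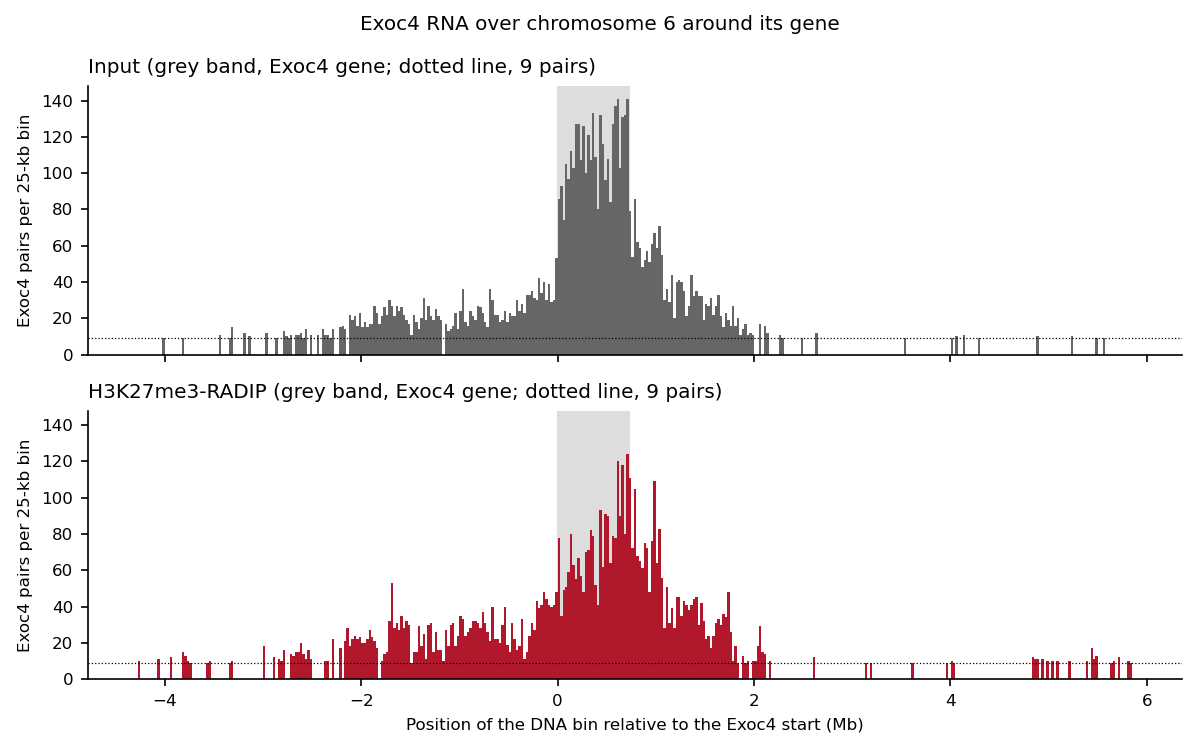
Exoc4 pairs per 25-kb bin of DNA (vertical axis) against the position of the bin from the Exoc4 start in Mb (horizontal axis), for Input above and H3K27me3-RADIP below, with the gene as a grey band and a dotted line at 9 pairs, the fewest in any listed bin. Over the gene Input reaches 141 pairs and H3K27me3-RADIP 124, and both tables trail off on either side, with more bins beyond 4 Mb in H3K27me3-RADIP.

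The RNA covered a long unbroken stretch over the gene and on both sides of it. Bins followed each other without a gap from chr6:32100001 to 35250000 in Input, 126 bins or 3.15 Mb, and from chr6:31450001 to 35100000 in H3K27me3-RADIP, 146 bins or 3.65 Mb. Of these 96 and 116 lay outside the gene. In all 210 bins were listed for Exoc4 in Input and 239 in H3K27me3-RADIP. The 183 in both tables held 7275 and 6774 pairs. The 27 listed in Input alone held 292 pairs, with at most 17 in a bin, and the 56 listed in H3K27me3-RADIP alone held 634, with at most 28. The share of such bins over all RNAs was not computed, so nothing particular to Exoc4 is read from these numbers. Over all RNAs H3K27me3-RADIP also had a larger share of pairs over 1 Mb, 7.30% against 4.60% in Input. No listed bin had fewer than 9 pairs in either table. A bin that is missing from a table is thus not shown to be empty. It may lie below that limit or have lost pairs to the authors' filters for blacklisted regions and unique mapping.

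Of 152 bins outside the gene on chromosome 6 in both tables, 99 held more pairs in H3K27me3-RADIP, 47 held more in Input and 6 held equal numbers. The same count was not made for other RNAs, so nothing particular to Exoc4 is read from it. On chromosome 6 outside the gene, pairs of all other RNAs had a log2 ratio of 0.08, against 0.26 for Exoc4. The largest gain in pairs was in chr6:34225001-34250000, 251 kb past the gene end, where no gene is annotated. It held 67 Input pairs and 109 H3K27me3-RADIP pairs and was picked after its values were seen. Next to the gene are Lrguk, a gene known for its role in sperm, and Slc35b4, a nucleotide sugar transporter, and bins over Lrguk held from 48 to 86 Exoc4 pairs in Input and from 61 to 105 in H3K27me3-RADIP.

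Bins were also ranked by their Exoc4 pairs with tags over 1 Mb apart, so a bin may lie less than 1 Mb from the gene end. The 5 with most lay within 2 Mb of the gene in each table, all before it in Input and on either side in H3K27me3-RADIP. The last places in Input were tied. The bins chr6:31600001-31625000 and chr6:31925001-31950000, also before the gene, held 27 Input pairs too and are not among the 5. The bin with most in H3K27me3-RADIP was chr6:31550001-31575000, with 53 pairs against 27 in Input. It overlaps Podxl, which encodes podocalyxin, a sialomucin of the cell surface, and pairs of all other RNAs there numbered 71 and 38. A second, chr6:34975001-35000000 in Slc23a4, held 48 pairs against 19, with 58 and 20 pairs of other RNAs. In Input the bin with most was chr6:32275001-32300000, which lies just under 1 Mb before Exoc4 within the semaphorin co-receptor gene Plxna4, with 36 pairs against 33 in H3K27me3-RADIP. The other ranked bins lay in Plxna4, Podxl and Slc23a4, over Mkln1 with the lincRNA genes Mkln1os and Gm13844, and over the lincRNA genes Gm13849, Gm43154 and Gm13848, while Gm6117 shares the bin with most in H3K27me3-RADIP.

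The sharing of these bins was mostly with RNAs of nearby genes. In the 157 bins of Input with Exoc4 pairs over 1 Mb, the other RNAs with most pairs were Chchd3, Lncpint, Cnot4, Mkln1 and Nrf1, and Chchd3, which lies just before Exoc4 and encodes a mitochondrial cristae protein, gave 1607 of its 2316 pairs there. In the 182 such bins of H3K27me3-RADIP they were Chchd3, Lncpint, Snd1, Cnot4 and Plxna4, and Chchd3 gave 1743 of 2584. Of 43 annotated genes within 1 Mb of Exoc4, 9 had significant pairs of their own. Chchd3 had a log2 ratio of 0.13 (exact 95% interval 0.04 to 0.21). Plxna4 RNA gave 165 and 254 pairs, a log2 ratio of 0.59 (0.30 to 0.88), and Lrguk RNA 27 and 62, a log2 ratio of 1.17 (0.49 to 1.88). Slc23a4 RNA gave 9 and 21, a log2 ratio of 1.19 with an interval that starts at 0.0026, and the intervals of the other 5 neighbours held 0. Like Exoc4, Chchd3 had a smaller share of pairs in its own gene in H3K27me3-RADIP, 23.7% against 35.7%.

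**Figure D3:**
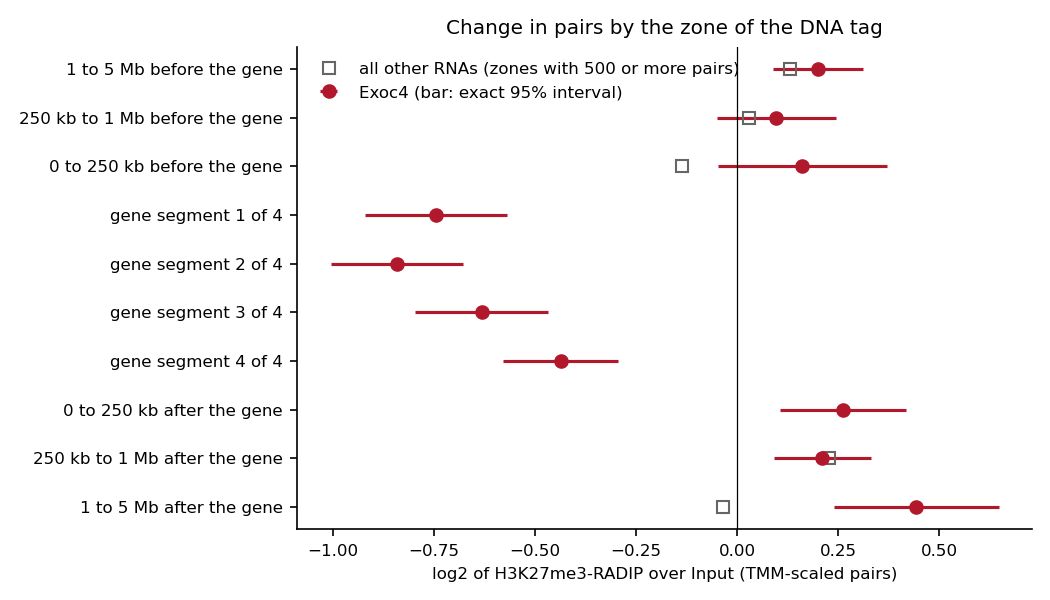
The log2 ratio of H3K27me3-RADIP over Input for Exoc4 pairs (red points, bars for exact 95% intervals) by the zone of the DNA tag, from upstream at the top to downstream at the bottom, with all other RNAs in the same zones as grey squares where they have 500 or more pairs. The 4 segments of the gene lie below 0, from -0.84 to -0.44, and the 3 zones after the gene, up to 5 Mb, lie above it at 0.21 to 0.44. In the zone 0 to 250 kb after the gene the other RNAs, at 0.69, have too few pairs to be drawn.

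Distances were long in both tables and longer in H3K27me3-RADIP. The median cis distance was 482 kb in Input (95% order-statistic interval 457 kb to 512 kb, 7558 cis pairs) and 729 kb in H3K27me3-RADIP (706 kb to 754 kb, 7386 cis pairs). Over all RNAs the median was 44.0 kb and 68.5 kb. A longer median in H3K27me3-RADIP was the common case, seen for 69.2% of the 7256 RNAs that had 10 or more cis pairs in each. The ratio of medians was 1.51 for Exoc4 and 1.34 at the median of these RNAs, and 2972 of them had a larger ratio. The middle of the Exoc4 distances, from the first to the third quartile, ran from 97.2 kb to 1222 kb in Input and from 208 kb to 1554 kb in H3K27me3-RADIP.

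Pairs over 1 Mb numbered 2316 in Input, 30.6% of the cis pairs (95% interval 29.6% to 31.7%), and 2931 in H3K27me3-RADIP, 39.7% (38.6% to 40.8%). Having any such pair was rare among RNAs, with 3.89% of RNA names in Input and 5.37% in H3K27me3-RADIP. By their number Exoc4 ranked 4 in Input, after Wwox, Fgfr2 and Tenm4, and 6 in H3K27me3-RADIP, after Wwox, Fgfr2, Tenm4, Kcnq1ot1 and Mcph1. Over 2 Mb there were 830 pairs and 1263 pairs. Over 5 Mb there were 25, or 0.331% (0.224% to 0.488%), and 243, or 3.29% (2.91% to 3.72%). Far bins with fewer than 9 pairs are missing from either table, so these shares depend on the listing limit.

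The gain at the far end was seen for RNA from either side of the gene's midpoint. From before it 29.2% of Input cis pairs and 40.4% of H3K27me3-RADIP cis pairs were over 1 Mb, and from after it 32.0% and 39.1%. Intronic tags had 31.0% (95% interval 29.9% to 32.0%) and 40.1% (38.9% to 41.2%) of their cis pairs over 1 Mb. Tags outside introns had 24.9% (20.9% to 29.3%) and 31.9% (27.3% to 36.9%). Intronic tags gave 2216 of the 2316 pairs over 1 Mb in Input and 2817 of the 2931 in H3K27me3-RADIP.

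Other long genes also had far pairs, Wwox a larger share and Msi2 a smaller one. Tenm4, an adhesion protein gene of 740 kb, had a median cis distance of 513 kb and 724 kb and 33.4% and 43.0% of its cis pairs over 1 Mb. Wwox, an oxidoreductase gene of 913 kb at a fragile site, had 1025 kb and 1394 kb with 50.5% and 56.9%, and Msi2, an RNA-binding protein gene of 379 kb, had 232 kb and 359 kb with 12.4% and 25.2%. Those 3 RNAs had more pairs in H3K27me3-RADIP, with log2 ratios of 0.38, 0.61 and 0.40, against -0.06 for Exoc4. On their own genes the log2 ratio of pairs was 0.16 (0.09 to 0.22) for Tenm4, 0.38 (0.32 to 0.45) for Wwox and 0.01 (-0.07 to 0.09) for Msi2, against -0.65 for Exoc4. As shares of their pairs, those on the own gene were lower in H3K27me3-RADIP for all 3 as for Exoc4, at 40.8% and 34.9% for Tenm4, 34.3% and 29.3% for Wwox and 44.1% and 33.7% for Msi2. Among 480 RNAs with at least 500 pairs in both tables, the nearest to Exoc4 by the summed absolute difference of shares in 6 distance classes were Magi1, at 13.6 percentage points over both tables, Fto, at 15.3, and Jarid2, at 17.4. On their own genes these RNAs differed, with a log2 ratio of pairs of -0.20 (-0.29 to -0.12) for Magi1, 0.17 (0.06 to 0.28) for Fto and -0.63 (-0.73 to -0.53) for Jarid2, which encodes a PRC2 cofactor.

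**Figure D4:**
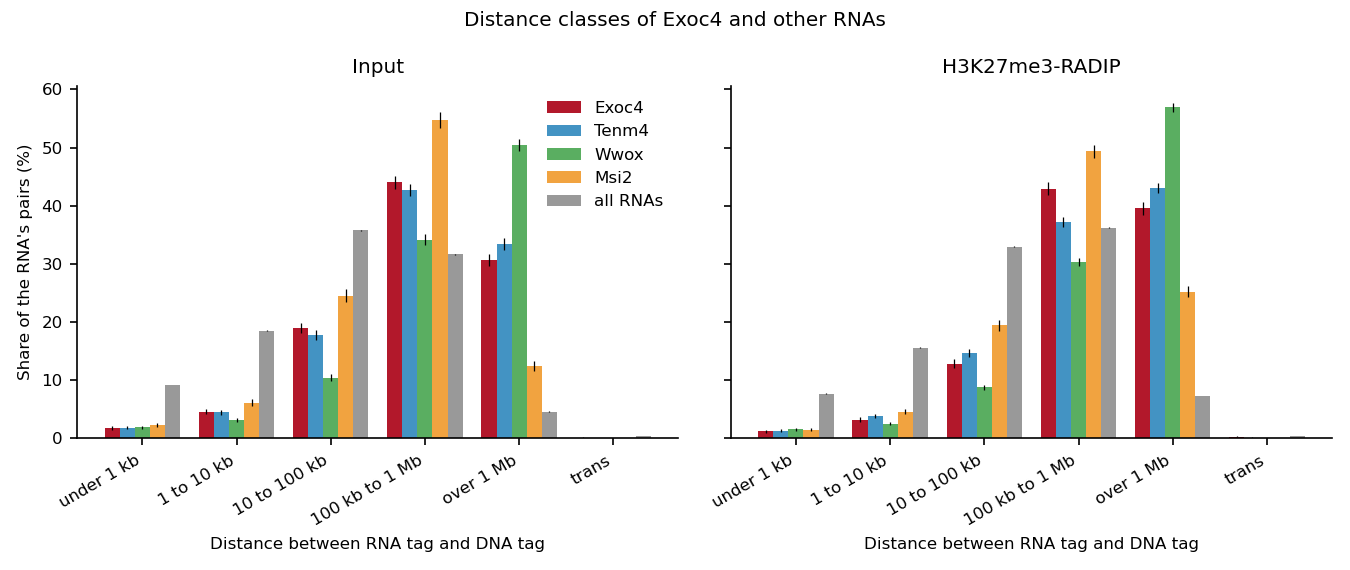
Share of pairs in percent (vertical axis) by the distance between RNA tag and DNA tag (horizontal axis) for Exoc4, Tenm4, Wwox, Msi2 and all RNAs, in Input on the left and H3K27me3-RADIP on the right, with 95% Wilson intervals as bars. Exoc4 has 30.6% of all its Input pairs and 39.6% of its H3K27me3-RADIP pairs over 1 Mb, against 4.60% and 7.30% over all RNAs.

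Beyond 10 Mb Exoc4 pairs were listed in H3K27me3-RADIP alone. There were 149 such pairs, 2.02% of the cis pairs (95% interval 1.72% to 2.36%), in 14 bins. Input listed none, and no fold is given because a bin below 9 pairs is not listed. Pairs over 10 Mb were found for 0.364% of RNA names in Input and 0.722% in H3K27me3-RADIP, and by their number Exoc4 ranked 14 in the latter. The 149 pairs came from 128 distinct RNA positions, at most 3 pairs from any 1 of them, spread from 19.9 kb to 710 kb into the gene. Of their RNA tags 145 were intronic, 87 lay before the midpoint of the gene and 62 after it. Only 10 of the pairs had DNA before the gene, and the other 139 had it after.

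The Hoxa cluster held the most of these pairs. Hoxa genes encode homeobox factors that pattern the body axis, and Evx1 beside them is a homeobox gene too. Over the 5 bins of chr6:52200001-52325000, from Hoxa5 to Evx1, Exoc4 had 48 H3K27me3-RADIP pairs in 4 bins from 46 RNA positions, 18.2 Mb to 19.0 Mb away, and none in Input. The bin chr6:52200001-52225000, with Hoxa3, Hoxa5, Hoxa6 and Hoxa7, held 16 pairs, the next bin with Hoxa9, Hoxa10 and Hoxa11 held 9, the bin of Hoxa13 and Hottip held 10 and the bin of Evx1 held 13. The bins that hold the starts of Hoxa2 and Hoxa4 had none listed. All other RNAs had 104 pairs in these 5 bins in Input and 318 in H3K27me3-RADIP, from 4 and 11 RNA names. Only Snd1, from a gene on the same chromosome, was another RNA that came from over 10 Mb away, with 17 pairs.

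Further Polycomb targets of the same chromosome were on a list of 21 genes with the Hoxa genes. Bins at the starts of 11 of the 21 held Exoc4 pairs in H3K27me3-RADIP and of 0 in Input. Those starts share bins, so the count is 6 of 16 bins. Of all 776 bins with a coding gene start over 10 Mb from Exoc4 on the chromosome, 7 did (0.902%), the 6 among them, and 0 did in Input. The list was drawn up with results of these data known, so nothing particular to it is read from these counts. Beside 8 Hoxa genes and Evx1 the genes with such bins were Dlx5, a homeobox gene of limb and brain, with 10 pairs at 26.6 Mb, and Tlx2, a homeobox gene of enteric neurons, with 11 pairs at 49.5 Mb. None was listed at the starts of Dlx6, Wnt2, Neurod6, Vax2, Emx1, Lbx2, Gata2 and Wnt7a, although other RNAs had 169 H3K27me3-RADIP pairs in the Gata2 bin and 160 in the Wnt7a bin.

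The other bins over 10 Mb away lay on genes outside that list, named here after their values were seen. They overlapped Jazf1, Chn2, Reep1, Polr1a, Tet3, Antxr1, Iqsec1 and Ret, with 9 to 11 pairs each and median distances from 19.4 Mb to 84.8 Mb. Tet3 encodes an enzyme that oxidises methylcytosine, and Polr1a encodes the large subunit of RNA polymerase I. In the 14 bins together other RNAs had 457 and 894 pairs in Input and H3K27me3-RADIP, a log2 ratio of 0.94, and they had more in H3K27me3-RADIP in 12 of the 14. These bins, the Hoxa bins among them, are in the set only because H3K27me3-RADIP listed them for Exoc4. The same share over all bins was not computed, so the pairs of other RNAs there are a description and no support. In 3 of the 14 another RNA also came from over 10 Mb away, Snd1 in 2 of the Hoxa bins and Magi1 and Tcf7l1 in the Tet3 bin. When pairs with the same RNA and DNA position were counted once, 9 of the 14 bins still held 9 or more, and the Iqsec1 bin held the fewest, 5.

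**Figure D5:**
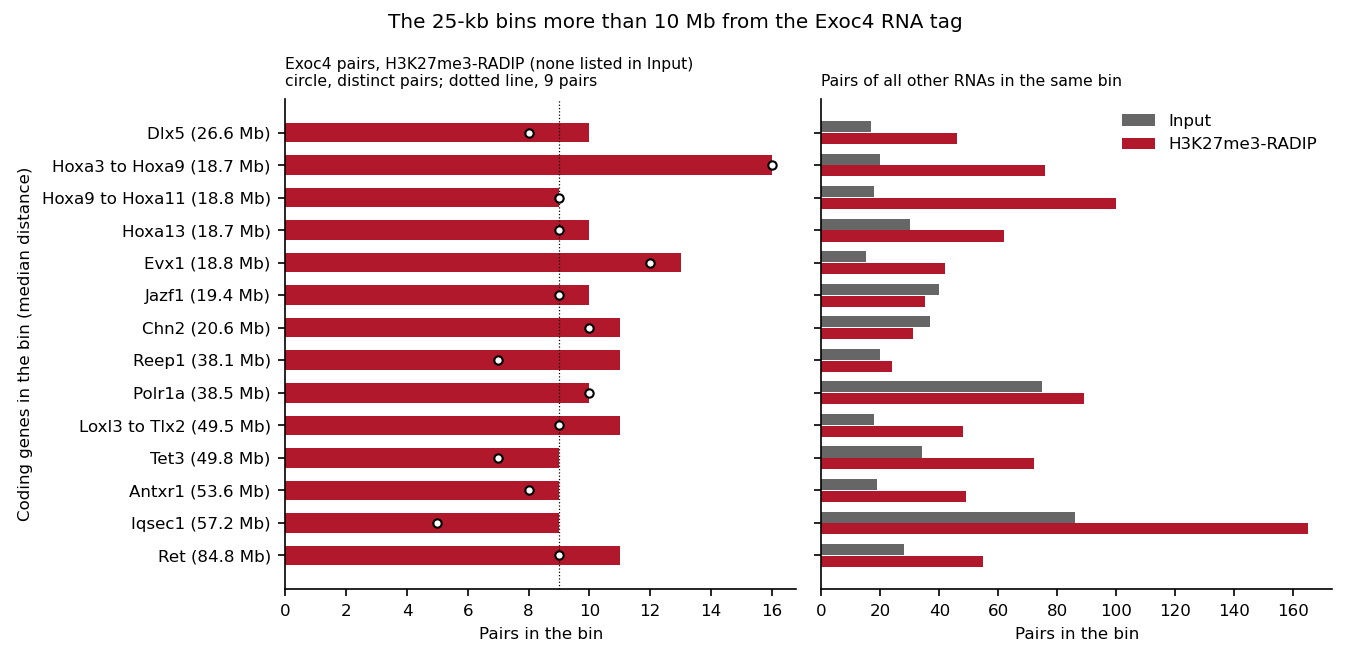
The 14 bins of DNA over 10 Mb from the Exoc4 RNA tag, named by their coding genes with the median distance in Mb, with Exoc4 pairs in H3K27me3-RADIP on the left (bars for pairs, circles for distinct pairs, dotted line at 9) and pairs of all other RNAs in Input and H3K27me3-RADIP on the right. The Hoxa3 to Hoxa9 bin is highest with 16 pairs, all distinct, and other RNAs have fewer pairs in H3K27me3-RADIP in the Jazf1 and Chn2 bins alone.

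The listing limit did not depend on distance in the far bins. In H3K27me3-RADIP every Exoc4 bin with 9 pairs had the q-value 0.0288, from 1470 kb to 57.2 Mb away, and every bin with 11 pairs had 0.00194, from 681 kb to 84.8 Mb away and in both trans bins. In Input every bin with 9 pairs had 0.0343, among them a trans bin. A q-value of these bins therefore stands for their number of pairs.

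Pairs between chromosomes were few. Exoc4 had 9 in Input and 22 in H3K27me3-RADIP, all with DNA on chromosome 11 in bins that overlap Sfi1, which encodes a centrosomal protein. Gm11400 overlaps both bins too, and Pisd-ps1 and Gm11399 overlap the first along the chromosome. In Input they fell in chr11:3150001-3175000 (q-value 0.0343), and in H3K27me3-RADIP 11 fell there and 11 in the bin before it (q-value 0.00194 for each). Trans pairs were listed for only 12 RNA names in Input (0.118%) and 40 in H3K27me3-RADIP (0.375%). In chr11:3150001-3175000 other RNAs had 393 pairs of 12 RNA names in Input and 705 pairs of 34 names in H3K27me3-RADIP, of which 8 and 27 names came from other chromosomes. Trans pairs of Exoc4 thus lay in bins that RNAs of other genes were paired with too.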

How the data were processed

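The authors crosslinked PGK12.1 cells, made RNA–DNA chimeras, and mapped both tags to mm10. Submitters' processing notes name CASAVA 1.8.2, STAR 2.5.0a and BWA 0.7.15-r1140, without their roles. Following the paper's methods, RNA tags were assigned to genes by GENCODE annotation and DNA tags to bins of 25 kb, replicates were merged and significance was modelled for each RNA and bin with CHiCANE. The deposited p-values and q-values are the authors', and only lines with a q-value of at most 0.1 are listed. They are not tests between conditions.

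Here pairs named Exoc4 were counted, with distances between tag centres. Input had 1305107 pairs and H3K27me3-RADIP 1415135, and since only significant bins are listed, a missing bin is not a count of 0. Intervals are Wilson for shares, exact Poisson or conditional binomial for counts and ratios, and order statistics for medians, at 95%. TMM factors (30% and 5% trims) were 1.03 and 0.975, from code tested on simulated data with 200 changed RNAs. No p-value between conditions could be computed from 1 merged table each. Read copies made by PCR are not independent molecules: 6.00% of Exoc4 pairs in Input and 9.61% in H3K27me3-RADIP repeat both tag positions of another pair. Counts depend on depth and on the authors' model.

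Named were the exocyst genes, 3 long genes beside Exoc4, genes in the 5 bins over 1 Mb with most pairs and in trans bins, 5 RNAs sharing bins, 3 RNAs nearest in distance classes with 500 pairs or more, neighbours within 1 Mb and 21 Polycomb targets. Beside these 21, 1 further item is not reported here. The gene and these lists were chosen with earlier results of these data known. Sequences are from the RefSeq GRCm38 genome and gene models from GENCODE M21. Alternatives were a q-value of at most 0.01, repeats counted once, other distances, shared bins and other scaling. Python 3.11.15, numpy 2.4.6, pandas 2.3.3, scipy 1.17.1 and matplotlib 3.10.9 were used.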

Additional observations from a re-analysis of the deposited data

How the results depend on the processing

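Of 44 alternatives over 13 values, 34 stayed within the main 95% interval or, for numbers of pairs, within 1.5 times the main number, 10 moved outside it and 0 reversed. The share of cis pairs over 1 Mb moved to 29.4% in Input and 38.4% in H3K27me3-RADIP at a q-value of at most 0.01, to 27.9% and 34.1% in bins listed in both tables, and to 20.8% and 28.2% when distance was taken from the nearest gene end, so it stayed higher in H3K27me3-RADIP under each. In shared bins the median cis distance was 440 kb and 635 kb. The log2 ratio was -0.15 with library totals in place of TMM factors. The share over 10 Mb in H3K27me3-RADIP, an alternative added after seeing the data, was 1.56% at a q-value of at most 0.01. The cause was not tested, beyond the fewer bins that stricter or shared settings leave by construction. No paired analysis was possible because the replicates were merged into 1 table per condition before deposit, and no replicate could be left out. Bins with fewer than 9 pairs are not listed, so absence from a table does not show absence of contact.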
